A study of Mus musculus with 8 samples.

Results

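Transcripts of creatine and calcium cycling were examined in BAT (brown adipose tissue, a fat depot that makes heat) of WT and obese db/db mice. The 7 genes are the creatine kinases Ckb and Ckmt2, the creatine synthesis enzymes Gatm and Gamt, the creatine transporter Slc6a8, the phosphatase Alpl and the calcium pump Atp2a2. They were given as a list of symbols, not chosen by their values, and all 7 were found among the 31053 genes of the count table after Ensembl identifiers were matched to symbols. In db/db BAT, Ckb was 1.88-fold, Gamt 7.84-fold and Ckmt2 9.14-fold higher than in WT as ratios of means. The value of Ckmt2 leaned on db/db replicate 1, without which its log2 fold change went from 3.20 to 2.38. Of the 6 genes that could be tested 0 were called lower, where 11.9% of all genes were. Skeletal muscle transcripts were also higher in db/db, Ckmt2 varied with them from library to library, and with their level in the model 0 of these 6 were called, where 4.72% of all genes were. With fast fibre genes alone as that level 2 of the 6 were called, Ckb and Gamt, where 6.46% of all genes were. With all fibre genes, Ckb went from 0.91 to 1.21 and Gamt from 2.97 to 2.17 on the log2 scale, with wider errors. Ckmt2 went from 3.20 to 0.30. Muscle level and genotype did not overlap, so their parts in a difference cannot be told apart.

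In futile creatine cycling, a creatine kinase passes phosphate from ATP to creatine and a phosphatase releases it again, so that ATP is spent and heat is set free. In futile calcium cycling, a SERCA pump moves calcium into the reticulum at the cost of ATP while calcium returns through release channels. Both are known in thermogenic adipocytes as routes of heat production beside the uncoupling protein UCP1. Skeletal muscle runs the same chemistry with its own proteins, chiefly the kinases Ckm and Ckmt2 and the pumps Atp2a1 and, in slow fibres, Atp2a2, so that fragments of muscle carried along with the depot would add to these transcripts.

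BAT came from 4 WT and 4 db/db mice aged 8 weeks, all labelled as strain C57BL6/J, and neither group was given an agent. Per the study's methods the mice were male, ate normal diet and were fasted before harvest, and db/db mice were of the line B6.BKS(D)-Leprdb/J. The line carries a mutation in the leptin receptor gene in all its cells. The db/db mice came from Jackson, and WT mice are credited to Charles River in the methods and to Jackson in the list of resources, so if the suppliers differed, genotype and supplier cannot be told apart. The groups were of 4 mice each, as many as the libraries, and p-values measure the spread between these libraries. The labels also name the stromal vascular fraction, the cells left once adipocytes are removed. The libraries held adipocyte RNA, with 1056 to 2754 CPM of Ucp1 and means of 1534 and 1909 CPM of Adipoq in WT and db/db, and are called BAT here. Levels are CPM, taken relative to the total of the genes that passed the filter and scaled by TMM.

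Libraries held 2374079 to 3240074 counts, and 9264 genes passed the filter on low counts. The mutated gene, Lepr, had 0 counts in all 8 libraries, so genotype could not be checked on its transcript. Skeletal muscle transcripts differed between the genotypes before any of the 7 genes is considered. The geometric mean of 30 fibre genes was 8.23, 21.3, 12.7 and 37.9 CPM in WT replicates 1 to 4 and 280, 76.7, 133 and 50.3 CPM in db/db replicates 1 to 4, without overlap.

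For the 3 genes that were higher in db/db and for the muscle kinase Ckm, the 250 bases before the RefSeq transcription start are shown, since these 4 transcripts were higher in db/db. RefSeq promoter windows (GRCm38.p6) were matched for 5 of the 7 genes. Capitals mark matches to a muscle-type E-box (CAGCTG) or a MEF2 box (CTA and TAG around 4 bases of any kind), motifs of muscle gene promoters. The Ckb stretch is chr12:111672339-111672588, the Ckmt2 stretch chr13:91876886-91877135 and the Gamt stretch chr10:80261013-80261262, all on the minus strand, and the Ckm stretch is chr7:19410844-19411093 on the plus strand.
Ckb: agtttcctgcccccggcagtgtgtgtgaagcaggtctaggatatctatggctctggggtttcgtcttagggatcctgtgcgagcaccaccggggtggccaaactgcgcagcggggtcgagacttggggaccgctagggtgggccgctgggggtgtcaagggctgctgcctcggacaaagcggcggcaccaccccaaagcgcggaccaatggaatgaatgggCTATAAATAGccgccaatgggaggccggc
Ckmt2: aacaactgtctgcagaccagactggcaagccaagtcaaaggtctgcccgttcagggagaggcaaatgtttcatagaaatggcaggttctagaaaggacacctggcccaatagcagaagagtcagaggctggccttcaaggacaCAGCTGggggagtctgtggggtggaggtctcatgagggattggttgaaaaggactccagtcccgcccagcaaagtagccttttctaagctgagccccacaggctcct
Gamt: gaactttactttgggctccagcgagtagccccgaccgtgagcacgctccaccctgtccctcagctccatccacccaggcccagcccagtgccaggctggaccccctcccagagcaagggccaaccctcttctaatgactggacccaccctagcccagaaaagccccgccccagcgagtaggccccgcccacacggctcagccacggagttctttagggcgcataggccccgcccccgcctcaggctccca
Ckm: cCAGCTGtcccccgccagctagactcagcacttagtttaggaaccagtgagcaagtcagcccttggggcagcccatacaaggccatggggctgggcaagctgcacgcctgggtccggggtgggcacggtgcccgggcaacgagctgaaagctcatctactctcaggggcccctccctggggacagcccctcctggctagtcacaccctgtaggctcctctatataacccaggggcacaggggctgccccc

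Both strands of each window, from 250 bases before to 50 bases after the start, were searched for these motifs and for the ERR half-site AAGGTCA. Ckb held a MEF2 box 29 bases before its start, Ckmt2 an E-box 107 bases before, 1 of the 2 windows of Alpl an E-box 176 bases before, Ckm one 249 bases before and Atp2a1, the muscle pump, one 55 bases before, while Gatm and Gamt held no match. Of all 32851 windows of that length, 16.3% held the E-box, 3.69% the MEF2 box and 4.72% the half-site, so these matches are descriptions and not evidence of binding.

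Across all genes, 2568 of 9264 differed between the genotypes in edgeR's quasi-likelihood test at an adjusted p of 0.05, which is 27.7%. Of the 7 genes, 6 could be tested and 3 of them were higher in db/db, where 15.8% of all genes were. None of the 6 was lower, with 0 at an unadjusted p under 0.05, where 11.9% of all genes were lower. DESeq2, which called 27.3% of all genes, and limma-voom also called 3 of the 6 higher and 0 lower. The median log2 fold change of the 6 was 0.62, beside 0.0066 over all genes. The same 3 genes did not overlap between the genotypes, as 28.1% of all genes did not. In bulk tissue, fewer cells of a type and less RNA per cell cannot be told apart.

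Ckb encodes the brain-type cytosolic creatine kinase, the isoform tied to futile creatine cycling in brown adipocytes, and lies on chromosome 12 (chr12:111669361-111672338, minus strand, ENSMUSG00000001270). Ckb stood at 27.1, 16.9, 15.4 and 19.1 CPM in WT replicates 1 to 4, and at 37.0, 40.1, 31.9 and 38.7 CPM in db/db replicates 1 to 4. All 4 db/db libraries were above all 4 WT libraries, and the highest WT library was replicate 1, the one with the least muscle transcript. The mean of Ckb rose from 19.6 ± 5.22 to 36.9 ± 3.57 CPM (SD, n = 4 each), a log2 fold change of 0.91 (SE 0.20, edgeR adjusted p 0.00218). Behind these levels were 40 to 67 counts per WT library and 72 to 126 per db/db library.

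Ckmt2 encodes the sarcomeric mitochondrial creatine kinase, which charges creatine beside the ATP exporter of the inner membrane, and lies on chromosome 13 (chr13:91853387-91876885, minus strand, ENSMUSG00000021622). Ckmt2 stood at 2.02, 7.17, 3.76 and 6.79 CPM in WT replicates 1 to 4, and at 102, 16.5, 42.6 and 19.3 CPM in db/db replicates 1 to 4. The genotypes did not overlap, but db/db replicate 1 was far above the other libraries of its group. The mean of Ckmt2 rose from 4.94 ± 2.47 to 45.1 ± 39.7 CPM (SD, n = 4 each), a log2 fold change of 3.20 (SE 0.53, edgeR adjusted p 0.000209). Without db/db replicate 1 the log2 fold change of Ckmt2 was 2.38 and still passed (edgeR adjusted p 0.00013). WT libraries held 5 to 17 counts of Ckmt2 and db/db libraries 52 to 339.

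Gatm and Gamt encode the enzymes that make creatine, first guanidinoacetate from arginine and glycine and then creatine by methyl transfer. Gatm (chr2:122594467-122611303, minus strand, ENSMUSG00000027199) had 1 count in each WT library and 5, 2, 2 and 1 counts in db/db replicates 1 to 4, too few for the filter. Over the genotypes this was 4 against 10 counts, a rate ratio of 2.16 with a 95% interval for counting error from 0.623 to 9.43 (exact permutation p 0.143 over libraries). No difference in Gatm was detectable at this depth.

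Gamt (chr10:80258151-80261012, minus strand, ENSMUSG00000020150) was measured by 5, 6, 1 and 5 counts in WT replicates 1 to 4 and by 73, 30, 21 and 39 counts in db/db replicates 1 to 4. In CPM these were 2.02, 2.53, 0.376 and 2.12 in WT against 22.0, 9.54, 9.31 and 14.5 in db/db. Each db/db library was above each WT library, and the mean rose from 1.76 ± 0.951 to 13.8 ± 5.93 CPM (SD, n = 4 each). The log2 fold change of Gamt was 2.97 (SE 0.45, edgeR adjusted p 9.18e-05).

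Slc6a8, on chromosome X (chrX:73673150-73682502, plus strand, ENSMUSG00000019558), encodes the transporter that takes creatine up from the blood. Its level was 32.8, 22.8, 28.6 and 39.1 CPM in WT replicates 1 to 4 and 17.7, 21.3, 33.7 and 32.7 CPM in db/db replicates 1 to 4. The genotypes overlapped over most of their range, and the log2 fold change of -0.24 (SE 0.23) did not pass the threshold (edgeR adjusted p 0.487).

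Alpl encodes tissue-nonspecific alkaline phosphatase, the enzyme proposed to hydrolyse phosphocreatine in thermogenic fat mitochondria (chr4:137741733-137796384, minus strand, ENSMUSG00000028766). Alpl had 8, 10, 14 and 10 counts in WT replicates 1 to 4 and 9, 6, 11 and 6 in db/db replicates 1 to 4. The mean was 4.24 ± 0.826 CPM in WT and 2.93 ± 1.34 CPM in db/db (SD, n = 4 each), with overlapping libraries. The log2 fold change was -0.57 (SE 0.42, edgeR adjusted p 0.347), so a difference was not detectable at these counts.

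Atp2a2 encodes SERCA2, the calcium pump of the reticulum in brown adipocytes, heart and slow muscle (chr5:122453513-122502225, minus strand, ENSMUSG00000029467). Atp2a2 stood at 79.3, 88.2, 57.9 and 82.8 CPM in WT replicates 1 to 4, and at 122, 90.4, 113 and 59.5 CPM in db/db replicates 1 to 4. In db/db, 3 libraries lay above all WT libraries, while db/db replicate 4 lay near the lowest WT library. The means of 77.0 ± 13.3 and 96.3 ± 27.9 CPM (SD, n = 4 each) gave a log2 fold change of 0.32 (SE 0.20) that missed the threshold (edgeR adjusted p 0.241). Without db/db replicate 4, the library with the least muscle transcript in its group, the log2 fold change was 0.50 (edgeR adjusted p 0.0393).

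**Figure D1:**
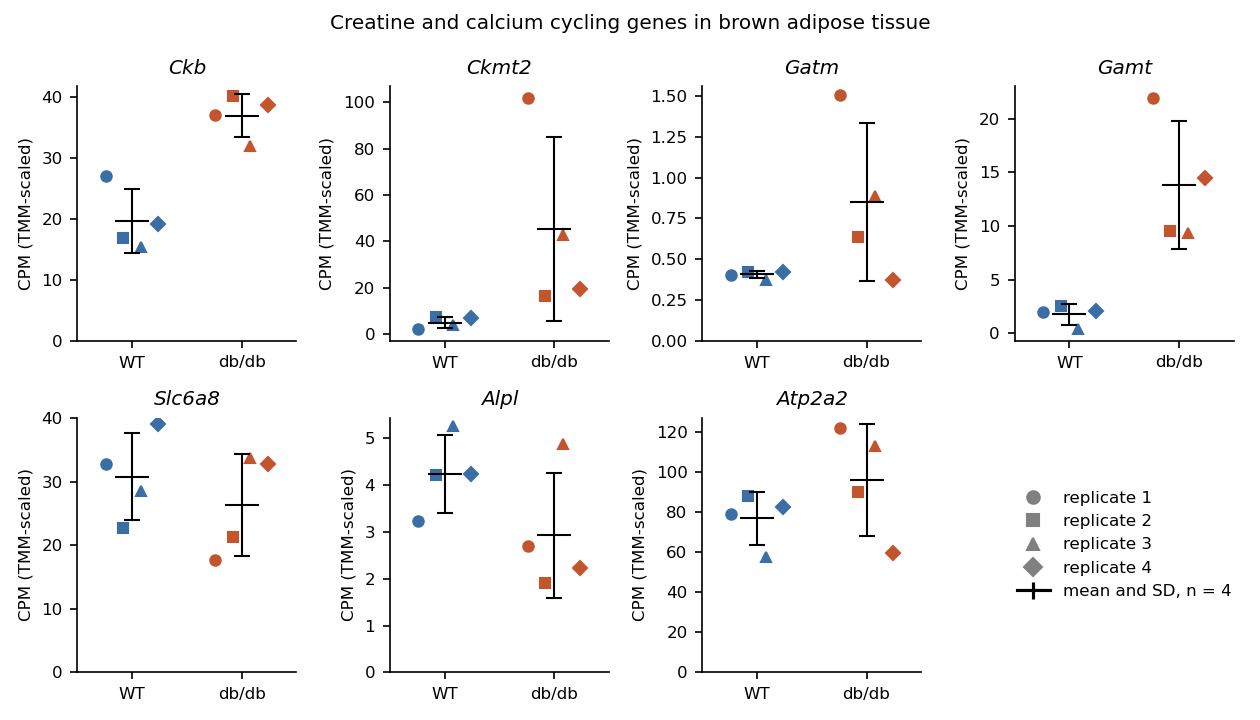
Level of each of the 7 genes in every library (vertical axes, TMM-scaled CPM, each panel on its own scale). WT is in blue and db/db in orange. Marker shapes stand for replicate numbers, which are not taken to pair the animals, and bars for mean and SD (n = 4). The genotypes are apart for Ckb, Ckmt2 and Gamt and overlap for Gatm, Slc6a8, Alpl and Atp2a2, and db/db replicate 1 reaches 102 CPM of Ckmt2.

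Ckb and Atp2a2 share 5.82% and 2.21% of their 75-base words with 1 other annotated gene each, Gm12892 and Gm30970, both of which had 0 counts. Genes annotated opposite Ckmt2 and Atp2a2 exons also had 0 counts. Levels were not compared between genes, since it was not given whether reads cover whole transcripts.

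To see which of the 7 could come from muscle carried over with the depot, their levels were set against the skeletal muscle genes, a list of 13 fast fibre, 9 slow fibre and 8 shared genes. Of these 30 genes, 29 were higher in db/db in edgeR, where 15.8% of all genes were. DESeq2 called 10 fast, 8 slow and 6 shared genes higher, and limma-voom 10, 9 and 6. The fast fibre genes summed to 395 to 1391 CPM in WT and 2087 to 10527 CPM in db/db, and the slow fibre genes to 36.8 to 194 CPM and 449 to 2337 CPM. In WT, Tnni1, Tnnc1, Csrp3 and Actn2 were at 0 in at least 1 library, and in db/db no gene of the list was. Acta1, the actin of muscle fibres, lay between 110 and 395 CPM in WT libraries and between 813 and 3977 CPM in db/db libraries. Myh4, a fast myosin, lay between 75.3 and 246 CPM and between 109 and 758 CPM. Myh7, the slow myosin, lay between 0.405 and 34.8 CPM and between 17.9 and 162 CPM, so both myosins overlapped between the genotypes. The muscle level itself spanned 4.60-fold within WT and 5.56-fold within db/db, which allowed each gene to be followed along it inside a genotype.

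Ckmt2 followed the muscle level closely. Over deviations from the genotype means of the 8 libraries, Pearson's r was 0.92 (exact permutation p 0.00868, adjusted 0.0304 over the 7 genes) and Spearman's rho 0.88 (exact permutation p 0.0208, adjusted 0.0729). Without db/db replicate 1 and WT replicate 1, the libraries farthest from the median muscle level, r was 0.79. In the edgeR model with both terms, Ckmt2 rose by 1.01 on the log2 scale for each doubling of the muscle level (SE 0.14, adjusted p 9.97e-05), and Ckm, the muscle kinase, by 0.92 (SE 0.079, adjusted p 2.23e-07).

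Ckb showed no such relation, with r of -0.39 (exact permutation p 0.366, adjusted 0.513) and rho of -0.45 (exact permutation p 0.276). Without the 2 farthest libraries its r was 0.066. It was 0.067 without WT replicate 1 alone and -0.52 without db/db replicate 1 alone, so the negative value rested on WT replicate 1. Ckb spanned 1.76-fold within WT and 1.26-fold within db/db, where the muscle level spanned 4.60-fold and 5.56-fold. For Gamt r was 0.41 and rho 0.55 (exact permutation p 0.352 and 0.201), and r was 0.33 without the farthest libraries and 0.11 without db/db replicate 1 alone.

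Atp2a2 had an r of 0.72 and a rho of 0.81 with the muscle level (exact permutation p 0.0729 and 0.0451, adjusted 0.170 and 0.105), and an r of 0.86 without the farthest libraries. Its model slope was 0.26 (SE 0.096, p 0.0128, adjusted p 0.688). The r of Atp2a2 passed an unadjusted p of 0.05 only without WT replicate 1 (r 0.87, exact permutation p 0.0417). Slc6a8 had an r of -0.27 and a rho of -0.29 (exact permutation p 0.554 and 0.590), and Alpl 0.37 and 0.48 (0.450 and 0.297). Without the farthest libraries r was 0.39 for Slc6a8 and 0.37 for Alpl. Gatm had an r of 0.77 and a rho of 0.86 (exact permutation p 0.00868 and 0.0174, adjusted 0.0304 and 0.0729), but with 1 count in each WT library its WT values carry only the scaling of the libraries. Without db/db replicate 1 or 2 the r of Gatm was 0.58 or 0.76 and missed the threshold (exact permutation p 0.0694 and 0.0556).

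**Figure D2:**
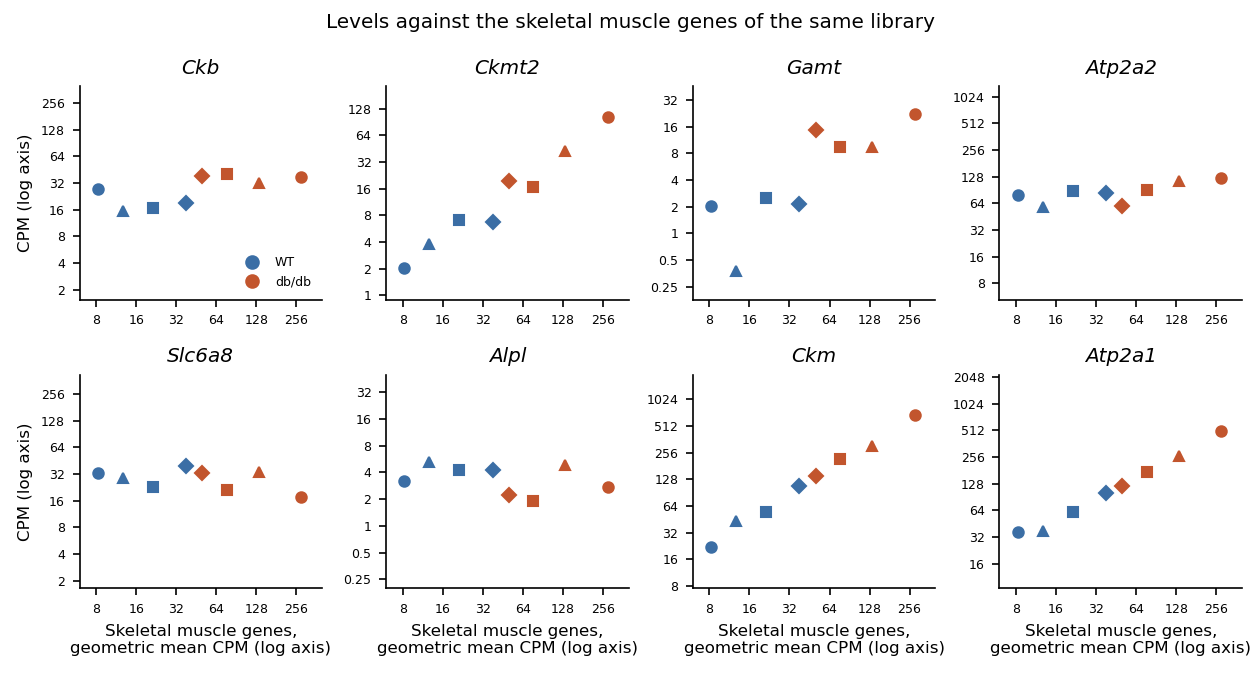
Level of 6 of the genes and of the muscle genes Ckm and Atp2a1 (vertical axes, CPM, log scale of equal span in all panels) against the geometric mean of 30 skeletal muscle genes in the same library (horizontal axes, CPM, log scale), with a marker for each library, WT in blue and db/db in orange. The genotypes do not overlap on the horizontal axis, with WT up to 37.9 CPM and db/db from 50.3 CPM of muscle genes, and the highest library of Ckmt2, Ckm and Atp2a1 is the one with the most muscle transcript, db/db replicate 1.

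The nearest pair of libraries from the 2 genotypes in muscle level were WT replicate 4 and db/db replicate 4, which differed 1.33-fold in it. Between them muscle genes differed unevenly, Ckm 1.31-fold, Atp2a1 1.21-fold and Acta1 2.06-fold higher in the db/db library and Myh4 and Myh7 at 0.443 and 0.513 of the WT library. Ckb was 2.03-fold, Ckmt2 2.85-fold and Gamt 6.84-fold higher in the db/db library. Atp2a2 was at 0.719 and Slc6a8 at 0.838 of the WT library. These are single libraries, chosen after their muscle levels were seen, and give no test.

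With the muscle level as a covariate beside genotype, edgeR called 437 of 9264 genes, or 4.72%. None of the 6 genes tested passed an adjusted p of 0.05 in that model, and 2, Ckb and Gamt, had an unadjusted p under 0.05. Ckb had a log2 fold change of 1.21 (SE 0.37, adjusted p 0.0638) and Gamt one of 2.17 (SE 0.71, adjusted p 0.0916), and Ckmt2 fell to 0.30 (SE 0.46, adjusted p 0.810). Atp2a2 turned to -0.41 (SE 0.32, adjusted p 0.568), and Slc6a8 and Alpl gave -0.017 (SE 0.41) and -0.99 (SE 0.84). With the fast fibre genes alone as the covariate, Ckb and Gamt passed (log2 fold change 1.18 and 2.29, adjusted p 0.0403 and 0.0392), and with the slow fibre genes alone they did not (1.32 and 1.94, adjusted p 0.142 and 0.349). Muscle level and genotype did not overlap, so the model extends a single slope, shared by both groups, across the gap, and the parts of muscle and genotype in a difference cannot be told apart.

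**Figure D3:**
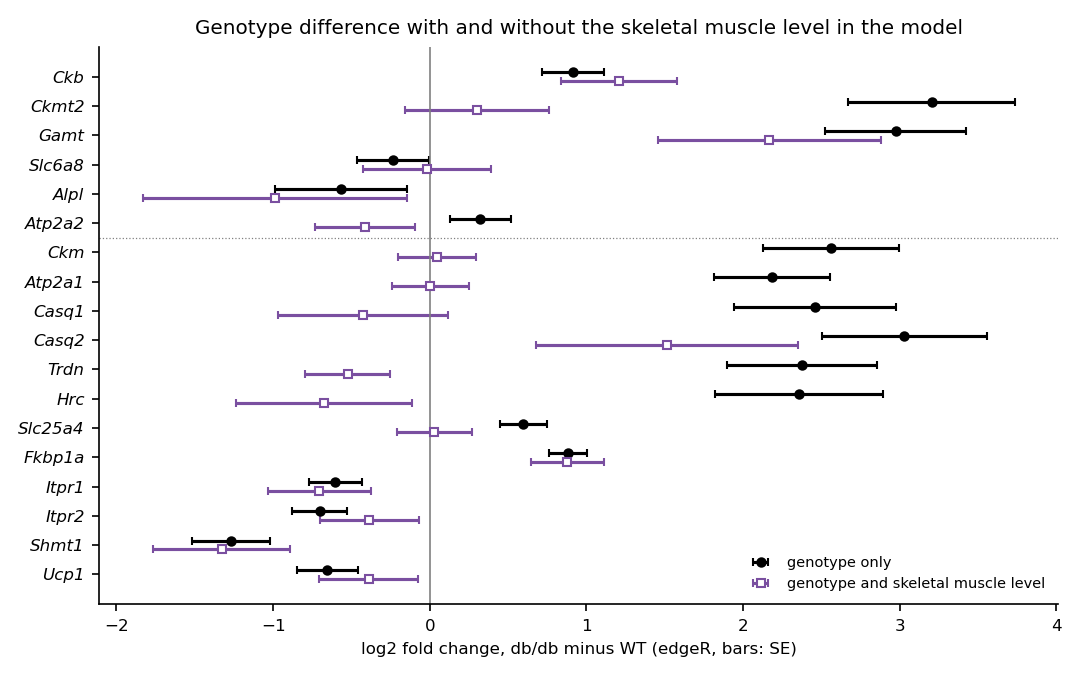
Log2 fold change of db/db over WT (horizontal axis) with its SE from edgeR with genotype alone (filled circles) and with the skeletal muscle level added (open squares), for the 6 genes tested (above the dotted line) and for other genes named in the text. Ckmt2 moves from 3.20 to 0.30, as Ckm and Atp2a1 move to 0.047 and 0.0039, while Ckb moves from 0.91 to 1.21 and Gamt from 2.97 to 2.17, with wider errors and neither past the threshold.

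Other cell types also differed between the genotypes. Of 10 macrophage markers 9 were higher in db/db (summed level 127 to 166 CPM in WT and 704 to 1285 in db/db), of 7 fibroblast markers 7 (498 to 634 and 1033 to 2137 CPM), and of 5 Schwann cell markers tested 3 (151 to 235 and 454 to 660 CPM). Trem2 was at 0 in at least 1 WT library, and no other macrophage marker was. The macrophage marker not called, Cd14, went the other way (log2 fold change -1.03, SE 0.45, edgeR unadjusted p 0.0355, adjusted p 0.0997). Of 7 neutrophil markers 2 could be tested and 1 was higher (0.752 to 12.7 and 23.5 to 27.4 CPM), of 3 smooth muscle markers tested 1 was higher (24.6 to 53.4 and 84.7 to 206 CPM), and of 7 endothelial markers tested 3 were lower (388 to 442 and 280 to 334 CPM). The part of these cell types in the rise of Ckb and Gamt was not tested. Of 11 brown adipocyte markers tested, 7 were lower and 0 higher in db/db in edgeR, DESeq2 and limma-voom, with 0 higher at an unadjusted p under 0.05. Of 6 adipocyte markers 2 were higher and 1 lower.

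Ratios inside a library need no scaling between libraries, and the difference of their mean log2 between genotypes was tested by an exact permutation over libraries, adjusted over 5 ratios. Ckb relative to Ucp1, the uncoupling protein, lay between -7.16 and -6.20 on the log2 scale in WT and between -5.70 and -4.83 in db/db. This ratio was 3.08-fold higher in db/db (exact permutation p 0.0286, the smallest possible with 4 against 4, adjusted 0.0357), but without db/db replicate 1 its p was 0.0571 (exact permutation) at a difference of 1.49 on the log2 scale. Ucp1 itself lay between 1892 and 2754 CPM in WT and between 1056 and 2027 CPM in db/db, with a log2 fold change of -0.65 in edgeR (SE 0.19, adjusted p 0.0176). Without WT replicate 4 or db/db replicate 3 the change of Ucp1 did not pass (-0.54 in both, adjusted p 0.0760 and 0.0633).

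Ckmt2 relative to Ucp1 was 12.1-fold higher in db/db (exact permutation p 0.0286, adjusted 0.0357), and the log2 difference went from 3.60 to 2.95 without db/db replicate 1. Relative to Ckm, the muscle kinase, Ckmt2 lay between -3.93 and -2.90 in WT and between -3.69 and -2.73 in db/db, and the mean difference of 0.38 was within the spread (exact permutation p 0.286). Atp2a2 relative to the muscle pump Atp2a1 lay between -0.27 and 1.12 in WT and between -2.05 and -0.94 in db/db, 3.50-fold lower in db/db (exact permutation p 0.0286, adjusted 0.0357). Without db/db replicate 1 this difference was -1.56 on the log2 scale and missed the threshold (exact permutation p 0.0571). Gatm relative to Gamt was lower by 2.33 on the log2 scale in db/db (exact permutation p 0.0286, adjusted 0.0357), a ratio set by Gamt, since Gatm had 1 to 5 counts.

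**Figure D4:**
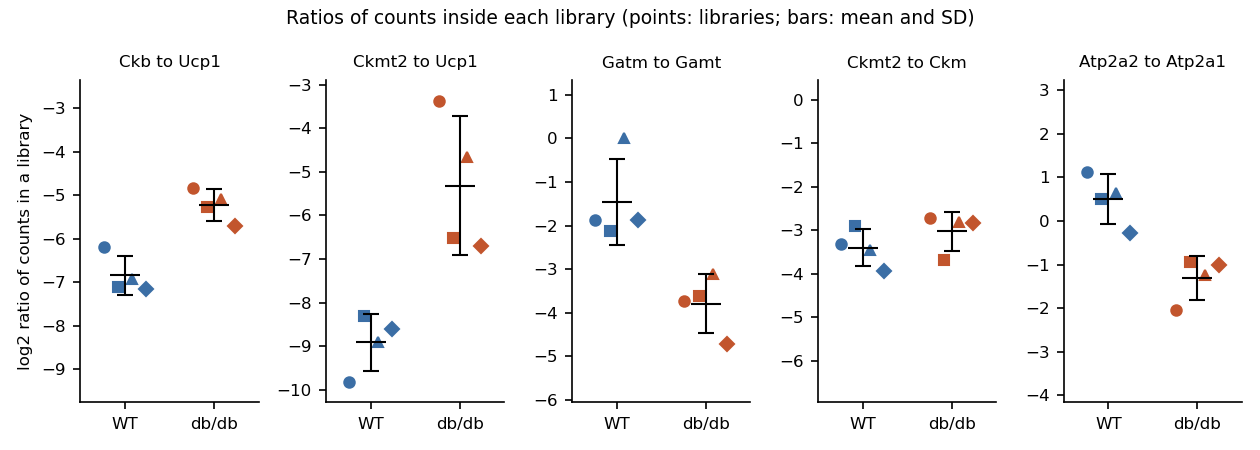
Log2 ratio of counts (with 0.5 added) of 5 pairs of genes inside each library (vertical axes, equal span), WT in blue and db/db in orange, with mean and SD (n = 4). The genotypes are apart for Ckb to Ucp1, Ckmt2 to Ucp1, Gatm to Gamt and Atp2a2 to Atp2a1, and overlap for Ckmt2 to Ckm.

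Beyond the 7 genes, 62 genes of the same pathways were listed, of which 42 passed the filter, 13 were higher and 6 lower in db/db and 23 did not pass the test, where 15.8% of all genes were higher and 11.9% lower. Among creatine kinases, Ckm (ENSMUSG00000030399) stood at 21.9, 54.9, 43.2 and 107 CPM in WT replicates 1 to 4 and at 675, 215, 301 and 140 CPM in db/db replicates 1 to 4. The log2 fold change of Ckm was 2.56 (SE 0.43, edgeR adjusted p 0.000246), without overlap between the genotypes, and it was 1.94 without db/db replicate 1. Ckmt1, the ubiquitous mitochondrial kinase, had 0 counts except for 1 in a single db/db library. Phospho1, a phosphatase proposed to act on phosphocreatine, had 0 in all. Exons of Phospho1 overlap Zfp652 on the same strand and Abi3 on the opposite strand, which had up to 92 counts in a library. Reads in shared stretches may have been left out, so the 0 does not show that Phospho1 was absent.

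Of 12 genes of arginine, glycine and methyl supply 6 could be tested and 1 was lower, Shmt1, the cytosolic enzyme that makes glycine from serine (log2 fold change -1.27, SE 0.25, edgeR adjusted p 0.000929). None of the 6 was higher in edgeR, DESeq2 or limma-voom, with 0 at an unadjusted p under 0.05. Ass1, an enzyme of arginine synthesis, was too low to be tested there and had 4 counts over WT and 21 over db/db, a rate ratio of 4.54 (95% counting interval 1.53 to 18.2, exact permutation p 0.0286). Of 9 genes of ATP and ADP exchange 8 could be tested. Slc25a4, the muscle and heart form of the ATP and ADP carrier, had 497 ± 73.3 CPM in WT and 752 ± 129 CPM in db/db (SD, n = 4 each) and rose by 0.60 on the log2 scale, and the adenylate kinase Ak1 rose by 1.08 on the log2 scale. Vdac2, a pore of the outer membrane, fell by 0.44 and the matrix adenylate kinase Ak3 fell by 0.78 on the log2 scale.

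Among calcium pumps, the fast muscle pump Atp2a1 (ENSMUSG00000030730) stood at 36.4, 61.6, 37.2 and 99.7 CPM in WT replicates 1 to 4 and at 505, 173, 265 and 121 CPM in db/db replicates 1 to 4. All db/db libraries were above all WT libraries, with a log2 fold change of 2.18 (SE 0.37, edgeR adjusted p 0.000261). Atp2b4, a calcium pump of the plasma membrane, had 16.2 ± 7.24 CPM in WT and 30.4 ± 3.05 CPM in db/db (SD, n = 4 each). It rose by 0.90 on the log2 scale (edgeR adjusted p 0.0138), but without WT replicate 4 it did not pass (0.75, adjusted p 0.0519).

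Of 5 peptides that regulate SERCA 2 could be tested. Arln, found under the table's symbol 1810037I17Rik and known to inhibit the pump, had 89 to 223 counts per library, with a log2 fold change of 0.30 (SE 0.20) that missed the threshold (edgeR adjusted p 0.287). Mrln, myoregulin, an inhibitor of the pump in muscle, had 7 counts over all WT and 59 over all db/db libraries, and its libraries overlapped. WT replicate 2 held 6 of those 7 counts and db/db replicate 1 held 35 of the 59. Sln, sarcolipin, which uncouples the pump in muscle, had 0, 0, 0 and 2 counts in WT replicates 1 to 4 and 26, 11, 8 and 6 in db/db replicates 1 to 4, a rate ratio of 22.0 with a 95% counting interval from 5.79 to 187 (exact permutation p 0.0286). Its counts in db/db were highest in replicate 1 and lowest in replicate 4, the libraries with the most and the least muscle transcript of that group. Pln, phospholamban, had 2 counts over all WT and 5 over all db/db libraries, a ratio of 2.16 (0.354 to 22.7). Strit1, found under the table's symbol Gm34302, encodes DWORF, a peptide that activates SERCA, and was at 0 in every WT library and 12.2 CPM on average in db/db. With a floor of 3 counts per WT library this was at least 9.99-fold higher, or at least 6.17-fold without db/db replicate 1.

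Of 8 genes of calcium release channels 4 could be tested. Fkbp1a, the small protein that steadies ryanodine receptors, stood at 253, 255, 227 and 242 CPM in WT replicates 1 to 4 and at 447, 424, 470 and 460 CPM in db/db replicates 1 to 4, with narrow spread in both groups. Its log2 fold change was 0.88 (SE 0.12, edgeR adjusted p 2.99e-05). The inositol trisphosphate receptors Itpr1 and Itpr2 fell by 0.60 and 0.70 on the log2 scale (SE 0.17 and 0.18, edgeR adjusted p 0.0126 and 0.00654), although Itpr1 did not pass without WT replicate 2 (-0.48, adjusted p 0.0576).

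Ryr1, the muscle ryanodine receptor, stood at 4.05, 10.6, 10.1 and 20.4 CPM in WT replicates 1 to 4 and at 52.6, 8.59, 28.4 and 10.4 CPM in db/db replicates 1 to 4, so the groups overlapped. Its log2 fold change was 1.16 (SE 0.49, edgeR adjusted p 0.0900), and it passed without WT replicate 4, db/db replicate 2 or db/db replicate 4 (1.60, 1.45 and 1.41, adjusted p 0.0422, 0.0293 and 0.0362). The value of Ryr1 without db/db replicate 1 was 0.45 (edgeR adjusted p 0.496). Ryr2 had 1 count over WT and 34 over db/db, a ratio of 29.4 (95% counting interval 4.93 to 1194; exact permutation p 0.0286), and Ryr3 had 0 in all libraries.

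Of 8 reticulum calcium buffers and triad proteins 7 could be tested and 6 were higher. Casq1 and Casq2, the calcium-binding calsequestrins of fast and of slow and heart muscle, rose by 2.46 and 3.03 on the log2 scale (SE 0.52 and 0.53), and Trdn and Hrc, partners of the release channel, rose by 2.38 and 2.36 (SE 0.48 and 0.54). Casq1, Trdn and Hrc were still called without db/db replicate 1, at 1.68, 1.65 and 1.73. Of 5 genes of store-operated entry 4 could be tested and none was called by edgeR, DESeq2 or limma-voom, with 1 lower at an unadjusted p under 0.05 in each, and 1 higher in limma-voom. Of 7 genes of mitochondrial calcium uptake 6 could be tested and 1 was lower, Letm1, a cation exchanger of the inner membrane (log2 fold change -0.50, SE 0.15, edgeR adjusted p 0.0168). Letm1 did not pass without WT replicate 2 or 4 or db/db replicate 3 (-0.46, -0.45 and -0.42, adjusted p 0.0531, 0.0570 and 0.0568).

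Along the muscle level inside the genotypes, 6 of the 42 genes had a slope past an adjusted p of 0.05, where 0.831% of all genes had one, namely Ckm, Atp2a1, Ryr1, Casq1, Hrc and Trdn. With the muscle level in the model, 2 of the 13 raised genes were called, Fkbp1a and Gm34302, and nothing is read from Gm34302, which had 0 counts in every WT library. Fkbp1a had a log2 fold change of 0.88 (edgeR adjusted p 0.0322) but missed the threshold with slow fibre genes alone or with the replicate block added (0.120 and 0.0538). Atp2b4 was not called but had an unadjusted p under 0.05. Its log2 fold change was 1.21 (SE 0.48, edgeR adjusted p 0.183), beside 0.90 without the covariate. Of the 6 lowered genes 0 were called, and Shmt1 and Itpr1 had an unadjusted p under 0.05. Their log2 fold changes were -1.33 and -0.71 with wider errors, beside -1.27 and -0.60 without the covariate. Shmt1 passed without db/db replicate 1 (-1.66, edgeR adjusted p 0.0103). Vdac2 and Letm1 were at -0.40 and -0.42, beside -0.44 and -0.50 without the covariate. Ak3 and Itpr2 were at -0.40 and -0.39, beside -0.78 and -0.70, and errors were wider here too. No other tool was run with this covariate. Ryr1 was then lower in db/db (-1.71, SE 0.48, edgeR adjusted p 0.0407), but not past the threshold without db/db replicate 1 or with slow fibre genes alone (adjusted p 0.0869 and 0.0521). Genes on the opposite strand with up to 22 counts in a library overlap Atp2a1, and with up to 31, 55 and 238 counts Shmt1, Vdac2 and Ak3, so part of these counts is uncertain where strand was not used.

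**Figure D5:**
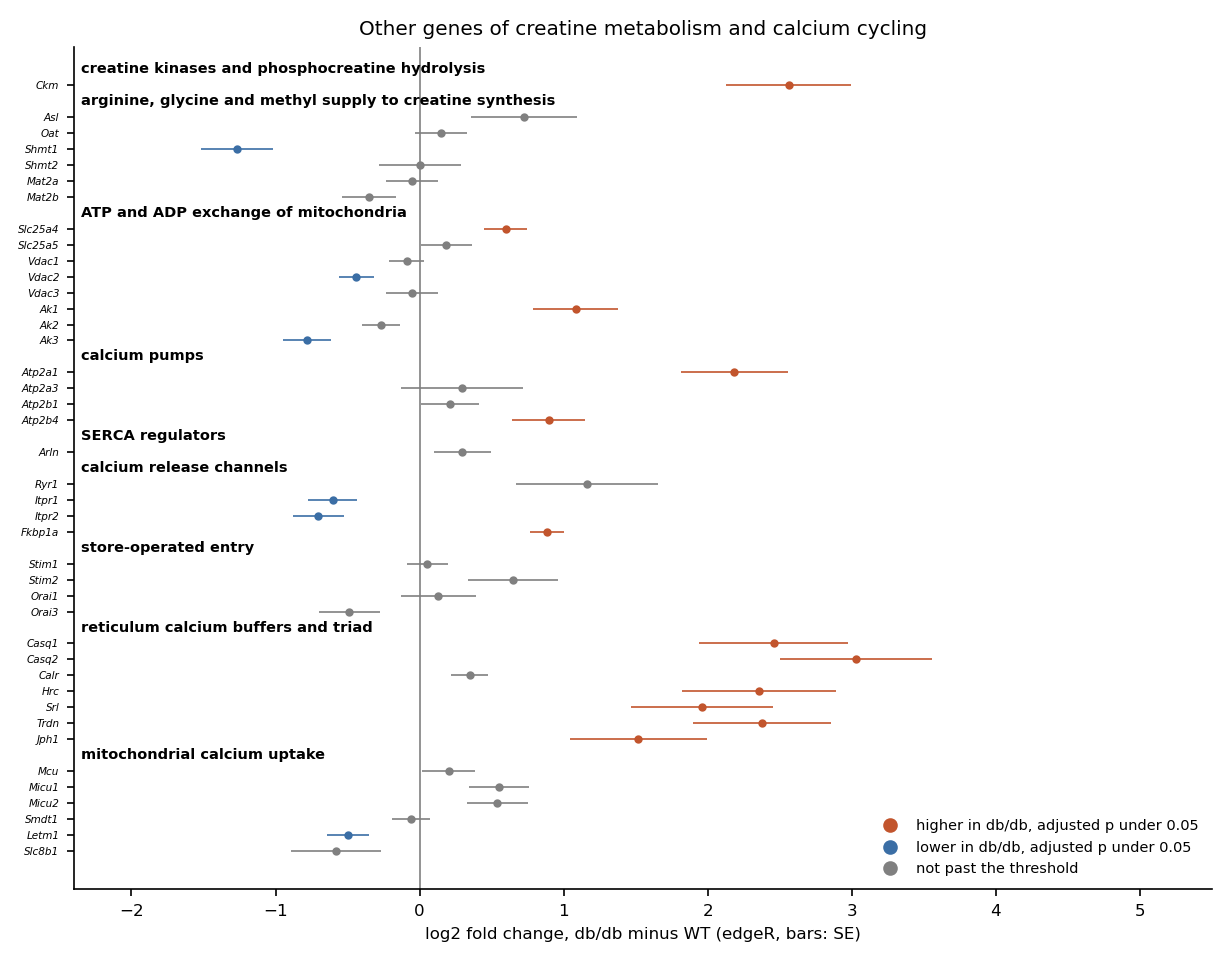
Log2 fold change of db/db over WT with its SE (horizontal axis, edgeR) for the tested genes of 9 pathway lists, with genes past an adjusted p of 0.05 in orange where higher and blue where lower, and the others in grey. Strit1, at 0 in every WT library, is left out. Muscle genes of the reticulum and triad, Ckm and Atp2a1 lie to the right, between 1.52 and 3.03, and Shmt1 lies farthest to the left at -1.27.

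The genes most like each member in their deviations from the genotype means over the 8 libraries, among 9263 others, are given as a description. For Ckb they were Tmem53, Parp14 and Atp6v0d2 (r 0.95, 0.94 and 0.94), and for Ckmt2 Cbfa2t2, Tuba4a and Xirp2 (0.98, 0.97 and 0.96), of which Xirp2 is on the muscle list. For Gamt they were Zfp142, Atp6v0e2 and Kpna4 (0.98, 0.98 and 0.97), and for Atp2a2 they included Nav3 and Mycbp2 (0.97 and 0.97). For Slc6a8 they were Slc25a46, Cox14 and Adtrp (0.99, 0.97 and 0.97), and for Alpl Dyrk2, Dcaf10 and Ssna1 (0.99, 0.97 and 0.97). With so many genes and 8 libraries, values of this size were found for each of the 6 genes tested.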

How the data were processed

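Bulk mRNA-seq of BAT was measured in 4 WT and 4 db/db libraries, and genotype and replicate number were taken from the sample titles. Per the study's methods, the authors trimmed single-end reads with bbduk, aligned them to mm10 with STAR and deposited raw counts per Ensembl gene from HTSeq-count, whereas the submitters' processing notes name Trimmomatic, HISAT2 and DESeq2. Whether strand or molecular identifiers were used was not given in the sources used here, and PCR copies may be included. The authors also deposited normalized log2 values (a count divided by a constant of its sample, plus 1), used here for 1 alternative only.

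Of 31053 genes, 31011 were matched to GENCODE M21 by Ensembl identifier. Counts were filtered by filterByExpr (minimum count 10, minimum total 15), which left 9264 genes, scaled by TMM and tested by quasi-likelihood in edgeR 4.0.16 (R 4.3.3), genotype being the only term, with Benjamini-Hochberg adjustment at 0.05. SEs were derived from the F statistic. The muscle level is the mean log2 CPM (prior count 2) of 30 genes. Ratios used a pseudocount of 0.5 (1 as an alternative), and relations all 576 permutations within genotypes, both two-sided. Counting intervals are exact 95% intervals for counting error only, and 3 counts is the floor, which is 0.926 to 1.26 CPM of library totals. In a chi-square comparison of counts (4.32 to 15.6 per degree of freedom) no library repeated another of its group.

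Alternatives were DESeq2 1.42.0, limma 3.58.1 (voom, and trend on the deposited values), 5 other scalings, 2 other filters, the muscle level as a covariate, a block for replicate number and the omission of single libraries. Further muscle covariates (without db/db replicate 1, fast or slow genes alone, with the block) were chosen after seeing the data. Genes named are the 7 genes, Ckm, Ckmt1, Atp2a1, Sln, Pln, Ryr1, Ryr2, Ryr3, Ucp1, Acta1, Myh4 and Myh7, up to 4 further called genes of each pathway list by size of change, and the 3 genes most like each member, of which 1 is not reported here. Phospho1, Arln, Mrln, Ass1, Adipoq, Cd14 and marker genes at 0 were named after their values were seen. The genes and lists were chosen with earlier results of these data known. Tests were checked on simulated data.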

Additional observations from a re-analysis of the deposited data

Results flagged for a closer look

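In 75 sets of 4 libraries, 6 held a library that stood apart from the other 3 by Dixon's criterion. Chance gives about 3.75 for continuous values. A set with a count in 1 library and 0 in the other 3 always stands out, so this number cannot serve as a comparison here. Sln had 0.849 CPM in WT replicate 4, the WT library with the most muscle transcript, and 0 in the other WT libraries. Pln had 0.844 CPM in WT replicate 2 and Ryr2 0.405 CPM in WT replicate 1, with 0 in the other WT libraries, and these values rest on 1 or 2 counts each. Letm1 had 127 CPM in WT replicate 3 against 170 to 177 CPM in the other WT libraries. The log2 ratio of Gatm to Gamt was 0 in WT replicate 3, where each gene had 1 count, against -2.12 to -1.87. The log2 ratio of Ckmt2 to Ckm was -3.69 in db/db replicate 2 while the other db/db libraries lay between -2.84 and -2.73.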

How the results depend on the processing

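The 3 members called higher and the direction of each of the 6 members tested held under DESeq2, limma-voom, the deposited values, every scaling, testing every gene with a count, the replicate block and leaving out each library, except that Atp2a2 also passed without db/db replicate 4 (log2 fold change 0.50, against 0.18 to 0.50 over libraries left out). Requiring 10 counts in every library left 1 member called, since Ckmt2 and Gamt were then not tested. Over these alternatives the log2 fold change of Ckb lay between 0.80 and 1.10, Ckmt2 between 2.38 and 3.48 and Gamt between 2.61 and 3.20. Depth limits Gatm, Alpl, Sln, Pln and Ryr2, and no scaling moved the median of all genes by 0.1 on the log2 scale.

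The muscle covariate left 437 genes, 0 members and 3 pathway genes called (543, 0 and 2 without db/db replicate 1; 598, 2 and 3 with fast genes alone; 213, 0 and 0 with slow genes alone; 418, 0 and 1 with the replicate block). In those 5 settings, in that order, the log2 fold change of Ckb was 1.21, 1.36, 1.18, 1.32 and 1.28, passing with fast genes alone, and Gamt was 2.17, 2.81, 2.29, 1.94 and 2.29, likewise. Ckmt2 was 0.30, 0.64, 0.61, -0.44 and 0.49, and Atp2a2 was -0.41, -0.39, -0.34, -0.48 and -0.42. Slc6a8 turned to 0.037 with fast genes and 0.024 with the block. Reversals of other genes in the same order were Ryr1 -1.71, -1.64, -1.47, -2.31 and -1.71, Myh4 -1.43, -1.21, -1.23, -1.90 and -1.36, Myh7 -1.14, -1.79, -0.66, -2.42 and -1.73, Ak1 -0.17, -0.19, -0.019, -0.39 and -0.13, Casq1 -0.43, -0.14, -0.15, -1.08 and -0.29, Trdn -0.52, -0.49, -0.24, -1.25 and -0.58, and Hrc -0.68, -0.80, -0.39, -1.39 and -0.83. With slow genes alone Ckm was -0.59, Atp2a1 -0.46, Acta1 -0.084 and Slc25a4 -0.092. Myh4 and Myh7 are themselves 2 of the 30 genes of the covariate. The cause of these changes was not tested.

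Same-numbered libraries hardly deviated together (r 0.038, 0.049, -0.078 and -0.014), so no pairing by number was seen, though these values cannot exclude one. For WT replicates 1 and 2 the most alike db/db library was the same-numbered one, for WT replicates 3 and 4 another. With the replicate block 2557 genes, 3 members and 20 pathway genes were called. The block left the ratios at 1.62 (Ckb to Ucp1), 3.60 (Ckmt2 to Ucp1), -2.33 (Gatm to Gamt) and -1.81 (Atp2a2 to Atp2a1), each with an exact permutation p of 0.125, the smallest that 4 pairs allow. Over libraries left out, Ckb to Ucp1 was 1.49 to 1.84 and Atp2a2 to Atp2a1 -2.06 to -1.56, with p 0.0571 for both without db/db replicate 1. The r with muscle was -0.61 to 0.067 for Ckb, positive without WT replicate 1, 0.58 to 0.89 for Gatm, 0.11 to 0.59 for Gamt, -0.67 to 0.19 for Slc6a8, positive without db/db replicate 1, and 0.59 to 0.87 for Atp2a2. Among other genes, Myh4 did not pass by DESeq2 (adjusted p 0.140), by limma-voom, on the deposited values, with the block or without each of WT replicates 1 to 3 or db/db replicate 1 (0.55), and Myh7 not by DESeq2 (adjusted p 0.0761). Ryr1 passed when every gene with a count was tested (1.10).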
